A study of Mus musculus with 12 samples.

Results

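The genes described here are 41 genes of fatty acid oxidation and ketone body metabolism, taken by gene symbol from a table of 52636 mouse genes; all 41 were in the table and all passed the filter on low values, as did 16563 genes in all. Their levels were measured by sequencing polyA RNA of hepatocytes, the main cell type of the liver, taken from fatty (steatotic) livers of 3 wild-type mice (WT) and 3 mice labelled as knockouts of Ptprk (KO); Ptprk encodes a receptor-type protein tyrosine phosphatase. The hepatocytes of each mouse were separated on a Percoll density gradient by lipid content. Each liver thus gave a library of low-fat and another of high-fat hepatocytes, 12 in all, in 4 groups of 3 by genotype and fraction. The diet or other cause of the steatosis, the age and sex of the mice, and the tissue range of the knockout are not given in the sources used here. Mice are numbered 1 to 3 within a genotype by the labels' replicate numbers. Both fractions of a mouse carry the same mouse name in the labels, while equal numbers in WT and KO are different mice.

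Hepatocytes burn fatty acids by beta-oxidation, which shortens an activated fatty acid (an acyl-CoA) by rounds of dehydrogenation, hydration, oxidation and thiolysis. Long-chain fatty acids enter mitochondria through the carnitine shuttle, whereas very-long-chain and other poorly handled fatty acids are shortened in peroxisomes by a separate set of enzymes, and the liver turns much of the resulting acetyl-CoA into ketone bodies for other organs. Many of these genes are known targets of the nuclear receptor PPAR-alpha, which fatty acids activate.

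By role, 6 of the 41 genes activate, bind or take up fatty acids (Acsl1, Acsl3, Acsl4, Acsl5, Fabp1, Slc27a2) and 3 form the carnitine shuttle (Cpt1a, Cpt2, Slc25a20). Another 5 encode acyl-CoA dehydrogenases, counted here with the mitochondrial pathway (Acadm, Acadl, Acads, Acadvl, Acad11). Of that pathway, 7 genes encode later steps (Hadha, Hadhb, Hadh, Acaa2, Echs1, Eci1, Decr1) and 3 the flavoproteins that pass its electrons on (Etfa, Etfb, Etfdh). The peroxisomal group holds 11 genes (Ehhadh, Hsd17b4, Acaa1a, Acaa1b, Scp2, Eci2, Decr2, Abcd2, Abcd3, Crat, Crot). Each gene was placed in a single group, although some products, such as that of Eci2, occur in both mitochondria and peroxisomes. Ketone body metabolism is represented by 2 genes (Acat1, Bdh1), and 4 genes encode thioesterases that split acyl-CoA back into free fatty acid and CoA (Acot1, Acot2, Acot3, Acot4).

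Levels are given as reads per 20 M (mega), the scale of the deposited table, in which the authors brought each library to the same total. The sequencing depth before that scaling was estimated at between 15.1 and 25.02 M reads a library. The 41 genes together took between 1.62% and 1.94% of a library's reads. Ptprk itself was at 2758, 2883 and 2724 reads per 20 M in the WT low-fat libraries against 1117, 1364 and 1333 in the KO low-fat libraries, and at 2174, 2578 and 2469 against 1217, 1204 and 1179 in the high-fat libraries. It was lower in KO in both fractions, by 1.13 (SE 0.09, adjusted p = 0.000982) and 0.98 (SE 0.09, adjusted p = 0.00448) on the log2 scale, by limma with Benjamini-Hochberg adjustment over the 16563 genes; reads of the gene remained in every KO library. Markers of 3 other liver cell types were higher in the high-fat libraries: the summed level of 9 Kupffer cell and macrophage genes lay between 473 and 1354 in the low-fat and between 2116 and 11462 in the high-fat libraries, that of 8 stellate cell genes between 120 and 617 against 1847 and 3225, and that of 8 sinusoidal endothelial genes between 884 and 2177 against 3598 and 11411. By limma, 8 of the 9 macrophage genes, all 7 stellate genes that passed the filter and all 8 endothelial genes were called higher in the high-fat fraction over both genotypes. The summed level of 8 hepatocyte genes (Alb, Apoa1 and others) was 537019 to 587909 in the low-fat and 545773 to 627310 in the high-fat libraries. After rescaling, 6 of these 8 were lower in the high-fat fraction over both genotypes, with a median difference of -0.13 on the log2 scale. The largest rise (0.71) was that of Cyp2e1, which is also counted among the central vein genes below. Genes typical of hepatocytes near the portal vein summed to between 184515 and 224790 in the low-fat and between 138824 and 166371 in the high-fat libraries, and genes of hepatocytes near the central vein to between 49287 and 92242 against 85393 and 120147. Reads of the mitochondrial genome made up 1.59% to 2.15% of the low-fat and 2.18% to 4.24% of the high-fat libraries, without overlap. The part of these shifts in any change of the oxidation genes was not tested. In bulk libraries, fewer cells of a type and less RNA per cell cannot be told apart.

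Per kilobase of annotated exon length, the most abundant of the 41 genes over the 12 libraries was Fabp1, the liver fatty acid binding protein, at 15478 reads per 20 M per kb. Scp2, whose products include a peroxisomal thiolase and a lipid transfer protein, followed at 14652, then the peroxisomal thiolase Acaa1b at 13368, the mitochondrial thiolase Acaa2 at 10036 and Slc27a2, a very-long-chain acyl-CoA synthetase, at 8611. These 5 genes stood together in the sense that each overlapped the next across libraries, and Slc27a2 (7790 to 9988 per kb) did not overlap the next gene, Etfb (3504 to 4574 per kb). In the full order of 41 genes, 38 of the 40 neighbouring pairs overlapped across libraries. The other pair that did not was Decr1, a dienoyl-CoA reductase (713 to 1041 per kb), above Echs1, the short-chain enoyl-CoA hydratase (491 to 655 per kb). Before division by length, Echs1 had more reads than Decr1 in every library. The length used is the union of all annotated exons of a gene, so the order per kb depends on the annotation. The lowest were Acot2 at 73.7, Abcd2, a peroxisomal fatty acid transporter, at 43.9 and the peroxisomal thioesterase Acot3 at 26.3 per kb.

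The comparison of fat fractions asks whether hepatocytes rich in lipid differ in these genes from those poor in lipid of the same liver. With the mouse as a block, 4 of the 41 genes changed between the fractions over WT and KO together: the thioesterase gene Acot1, Eci2, an enoyl-CoA isomerase of peroxisomes and mitochondria, and the peroxisomal thiolase gene Acaa1a rose in the high-fat fraction, and Acsl3, a long-chain acyl-CoA synthetase of the endoplasmic reticulum and lipid droplets, fell. That is 9.76% of the group, against 10.5% of all genes tested in the same fit (1731 of 16563), so the share is near the background; by direction, 3 rose (7.32%, background 6.65%) and 1 fell (2.44%, background 3.8%). Their identifiers in the deposited table are ENSMUSG00000072949 (Acot1), ENSMUSG00000021417 (Eci2), ENSMUSG00000036138 (Acaa1a) and ENSMUSG00000032883 (Acsl3). When both libraries of a mouse were left out in turn with the block, Acot1 was called in 6 of 6 such fits, Acsl3 in 4 (not without WT mouse 1 or 2), Eci2 in 2 (without KO mouse 1 or 2) and Acaa1a in 1 (without KO mouse 1). Of all 16563 genes, these fits called from 619 (without WT mouse 1) to 2973 (without KO mouse 2). The fit without KO mouse 1 called 1657. Without the block, none of the 41 genes was called in this comparison, where 5.76% of all genes were; 4 of the 41 (9.76%) and 3128 of all genes (18.9%) had an unadjusted p under 0.05. The calls over all genes with the block comprised 1101 higher and 630 lower, a split that moved to 1179 higher and 342 lower when the deposited scaling was used as it stands.

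Acot1 hydrolyses long-chain acyl-CoA in the cytosol. It stood at 173, 371 and 505 reads per 20 M in the low-fat libraries of WT mice 1 to 3 and at 358, 543 and 820 in their high-fat libraries. In KO mice 1 to 3 it stood at 374, 534 and 365 in low-fat and at 610, 1060 and 519 in high-fat libraries. Each mouse had more in its high-fat library, by between 1.39-fold and 1.997-fold after rescaling between libraries, although the ranges of the fractions overlapped in WT and, before rescaling, in KO. The mean difference was 0.67 on the log2 scale, 1.59-fold, with an SE of 0.29 without and 0.09 with the mouse block (limma, adjusted p = 0.234 and 0.0039). With the block Acot1 was also called within WT (0.68, adjusted p = 0.0483, where 1.02% of all genes were called) and within KO (0.66, adjusted p = 0.0376, where 2.14% were), the only one of the 41 genes called in either; with a mouse left out it was called in WT only without KO mouse 1 or 2, and in KO only without WT mouse 1 or KO mouse 1. Without the block 0 of the 41 were called within WT or within KO, beside 0% and 0.894% of all genes by limma. At an unadjusted p under 0.05 there were 2 in WT (4.88%, all genes 11.5% or 1902) and 1 in KO (2.44%, all genes 8.95% or 1482).

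The promoter sequences of the 3 genes that rose are shown because they were called, and that of Fabp1 because it was higher in the high-fat library of every mouse, without being called, and held the closest match to the letters searched. The size of the difference between fractions was not ordered alike over the mice: it was largest in KO mouse 2 for Acot1 (0.998 on the log2 scale) and Acaa1a (0.37), in WT mouse 1 for Eci2 (0.44) and in KO mouse 3 for Fabp1 (0.59). Each line gives the 250 bases before the RefSeq start of the gene, read 5′ to 3′ on the gene's own strand; they come from RefSeq on GRCm38.p6, at chr12:84009252-84009501 (plus strand) for Acot1, chr9:119341044-119341293 (plus strand) for Acaa1a, chr13:34994145-34994394 (minus strand) for Eci2 and chr6:71199629-71199878 (plus strand) for Fabp1. Capitals mark matches to the letters described in the next paragraph.
Acot1: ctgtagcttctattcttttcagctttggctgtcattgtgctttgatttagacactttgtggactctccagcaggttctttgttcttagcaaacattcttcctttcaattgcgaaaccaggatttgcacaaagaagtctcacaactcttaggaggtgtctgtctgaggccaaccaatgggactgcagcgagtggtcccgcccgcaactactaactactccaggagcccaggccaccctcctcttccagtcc
Acaa1a: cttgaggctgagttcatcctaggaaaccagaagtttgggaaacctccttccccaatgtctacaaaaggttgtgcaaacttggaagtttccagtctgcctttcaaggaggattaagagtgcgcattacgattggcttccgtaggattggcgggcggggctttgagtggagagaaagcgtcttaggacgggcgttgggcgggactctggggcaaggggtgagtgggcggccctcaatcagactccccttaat
Eci2: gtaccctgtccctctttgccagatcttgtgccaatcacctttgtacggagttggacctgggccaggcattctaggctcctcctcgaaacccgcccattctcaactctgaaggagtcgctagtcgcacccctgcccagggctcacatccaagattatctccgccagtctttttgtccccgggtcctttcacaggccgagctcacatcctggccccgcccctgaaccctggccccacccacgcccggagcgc
Fabp1: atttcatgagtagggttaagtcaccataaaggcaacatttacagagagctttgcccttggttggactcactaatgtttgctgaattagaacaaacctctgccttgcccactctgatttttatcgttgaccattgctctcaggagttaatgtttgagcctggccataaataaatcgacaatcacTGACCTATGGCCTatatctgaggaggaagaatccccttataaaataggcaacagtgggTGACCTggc

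The letters searched were AGGTCANAGGTCA, a repeat of the half-site AGGTCA with a spacer of 1 base as bound by PPAR-alpha with its partner RXR, on both strands and with up to 2 of its 12 fixed letters mismatched. RefSeq gave a promoter for 35 of the 41 genes; Acaa2, Decr1, Hsd17b4, Abcd2, Crat and Acat1 were not matched. Of these 35 genes, 4 (11.4%) held a match in the 250 bases, against 3.72% of all 27025 genes and 3.24% of all 32851 promoters of the same length. Fabp1 had the closest, TGACCTATGGCCT on the reverse strand, with 1 mismatch, 67 to 55 bases before the start. The others had 2 mismatches: TGACCTTTGGCCG in Acot4, AGGTCACGGGTCC in Echs1 and TTACCTTTGCCCT in Etfa. The half-site alone, AGGTCA or its reverse TGACCT, occurred in 8 of the 35 genes and in 15.8% of all genes, and Fabp1 held it at 2 places, the second 9 to 4 bases before the start. The 250 bases of Acot1, Acaa1a and Eci2 held no match to these letters. A match describes these letters only.

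Eci2 stood at 2069, 2604 and 2983 reads per 20 M in the low-fat libraries of WT mice 1 to 3 and at 3082, 2836 and 3778 in their high-fat libraries. KO mice 1 to 3 had 2627, 3985 and 3074 in low-fat and 3525, 4663 and 3520 in high-fat libraries. Every mouse was higher in its high-fat library, while the ranges of the groups overlapped within each genotype. The mean difference was 0.24 on the log2 scale, 1.18-fold (limma with the mouse block, SE 0.06, adjusted p = 0.0323; without it, SE 0.13, adjusted p = 0.361).

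Acaa1a and Acaa1b encode 2 peroxisomal 3-ketoacyl-CoA thiolases of the mouse. Acaa1a went from 3043 to 3960, from 3604 to 4075 and from 3770 to 4935 reads per 20 M from the low-fat to the high-fat libraries of WT mice 1 to 3. In KO mice 1 to 3 it went from 3663 to 4491, from 4183 to 5379 and from 3789 to 4285. All 6 mice had more in the high-fat library, and in KO the ranges of the fractions did not overlap. The difference was 0.22 on the log2 scale, 1.17-fold (limma with the mouse block, SE 0.06, adjusted p = 0.043; without it, SE 0.09, adjusted p = 0.227).

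Acaa1b was more abundant than Acaa1a. It stood at 21757, 23612 and 19826 reads per 20 M in WT low-fat and at 28690, 29079 and 25452 in WT high-fat libraries. Its KO levels were 25596, 24348 and 25515 in low-fat and 29094, 31131 and 30636 in high-fat libraries. High-fat libraries were above low-fat libraries in both genotypes on the deposited scale, but after rescaling 5 of 6 mice were higher and KO mouse 1 was not. The difference of 0.24 (limma, SE 0.08, adjusted p = 0.125; with the block, SE 0.08, adjusted p = 0.107) did not pass, though it did with the deposited scaling as it stands, both with and without the block (0.31).

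Fabp1 was at 7629, 7159 and 7559 reads per 20 M in the WT low-fat libraries and at 9371, 10383 and 8910 in the WT high-fat libraries. KO levels were 8227, 7059 and 7077 in low-fat and 10029, 8731 and 10579 in high-fat libraries. All 6 mice were higher in the high-fat fraction, with no overlap between fractions in WT and, before rescaling, in KO. The rescaled difference was 0.30 (SE 0.09, adjusted p = 0.076; with the block, SE 0.09, adjusted p = 0.0611, limma), short of the threshold; it passed without KO low-fat replicate 1 (0.35, adjusted p = 0.0452) and with the deposited scaling as it stands (0.37).

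Acsl3 was the only one of the 41 genes called lower in the high-fat fraction. It stood at 731, 627 and 387 reads per 20 M in the low-fat libraries of WT mice 1 to 3 and at 535, 469 and 342 in their high-fat libraries. KO mice 1 to 3 had 461, 641 and 691 in low-fat and 384, 521 and 653 in high-fat libraries. Each mouse had less in its high-fat library, although mice differed so much that the groups overlapped. The difference was -0.36 on the log2 scale (limma with the mouse block, SE 0.07, adjusted p = 0.0174; without it, SE 0.19, adjusted p = 0.334).

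**Figure D1:**
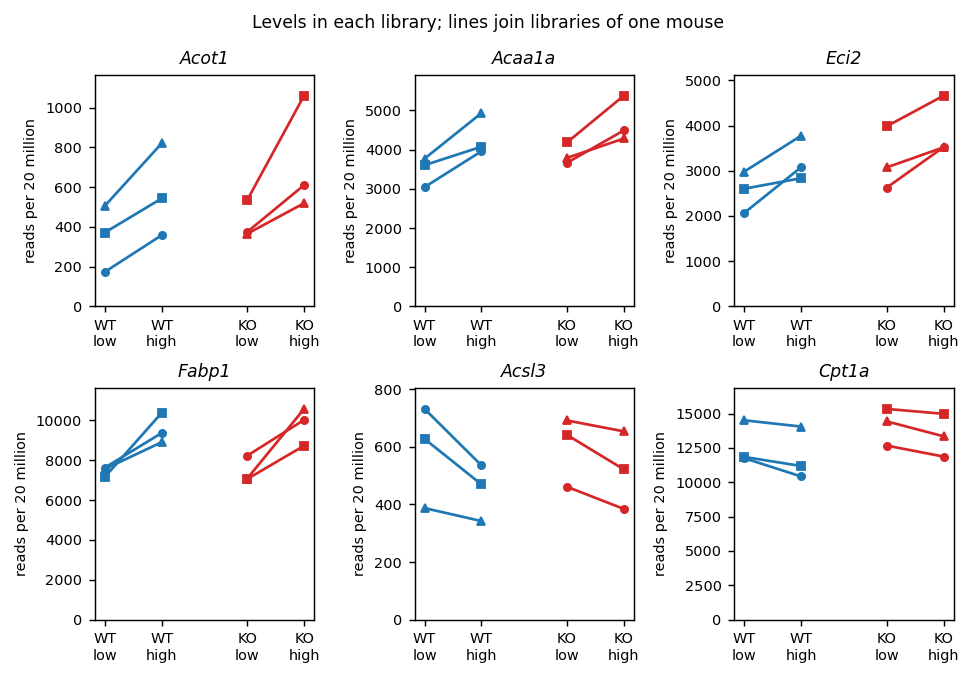
Reads per 20 M of 6 genes (vertical axes, from 0) in the low-fat and high-fat library of each mouse, joined by a line; blue is WT, red is KO, and circles, squares and triangles are replicates 1, 2 and 3. Acot1, Acaa1a, Eci2 and Fabp1 slope upward and Acsl3 and Cpt1a downward in all 6 mice.

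In all, 5 of the 41 genes were higher in the high-fat library of all 6 mice after rescaling: Acot1, Acot2, Fabp1, Eci2 and Acaa1a. That is 12.2% of them, against 9.74% of all genes. Lower in all 6 after rescaling were Acsl3, Acsl4, an acyl-CoA synthetase that prefers arachidonic acid, and Cpt1a, the rate-controlling enzyme of the carnitine shuttle. Those 3 are 7.32% of the group, against 11.7% of all genes, so neither share stood far from the background. With the deposited scaling as it stands, 7 genes (17.1%, background 10.8%) were higher in all 6 mice, with Acaa1b and Decr2 added, and 2 (4.88%, background 5.93%) were lower, without Acsl4.

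Cpt1a was at 11754, 11847 and 14512 reads per 20 M in the WT low-fat and at 10423, 11185 and 14056 in the WT high-fat libraries. In KO it was at 12671, 15342 and 14436 in low-fat and at 11871, 14984 and 13345 in high-fat libraries. Mice differed more from each other than their fractions did, and the difference of -0.17 was not called (limma with the block, SE 0.07, adjusted p = 0.158). Acsl4 had 2423, 1381 and 1394 in WT low-fat, 2114, 1215 and 1408 in WT high-fat, 1727, 1195 and 1618 in KO low-fat and 1648, 1150 and 1450 in KO high-fat libraries. Its difference of -0.18 was not called (adjusted p = 0.0733 with the block, limma). Acsl5, another acyl-CoA synthetase, had 9173, 7594 and 6890 in WT low-fat, 7710, 6816 and 6625 in WT high-fat, 8159, 5413 and 8832 in KO low-fat and 6349, 5669 and 8551 in KO high-fat libraries; its difference of -0.21 was not called either (adjusted p = 0.171 with the block, limma). Acsl1, the main liver member of that family, differed by -0.05 between fractions and Slc27a2 also by -0.05.

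**Figure D2:**
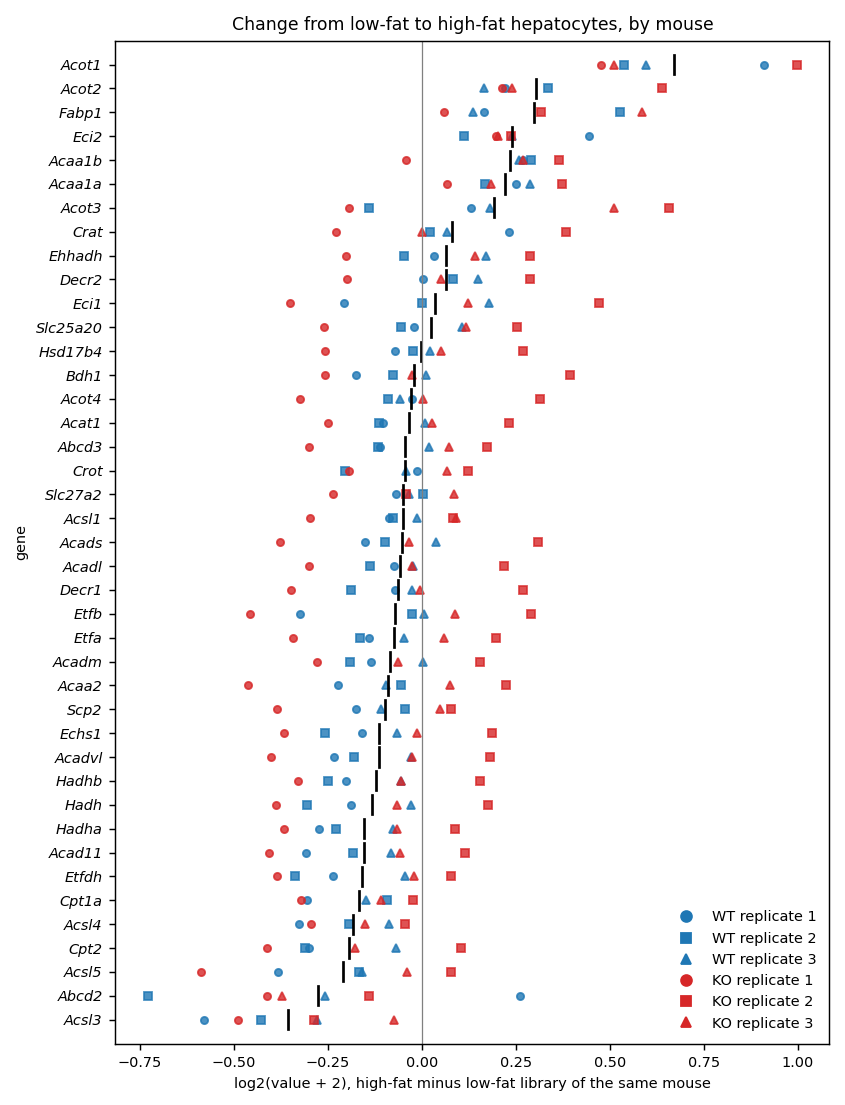
Difference between the high-fat and low-fat library of each mouse in log2(value + 2) after rescaling (horizontal axis) for the 41 genes (vertical axis), with circles, squares and triangles for replicates 1, 2 and 3 of WT (blue) and KO (red) and a black bar at the mean. Acot1 has the largest mean (0.67) and Acsl3 the lowest (-0.36), and for most genes KO replicate 1 lies at the left and KO replicate 2 at the right.

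The median difference between fractions over the 41 genes was -0.05 on the log2 scale for the mean of WT and KO, beside -0.04 over all genes tested, and 12 of the 41 were above 0 (29.3%, all genes 41.4%). It was -0.08 in WT (11 above 0, 26.8%, all genes 43.3%) and -0.03 in KO (15 above 0, 36.6%, all genes 40.4%), beside -0.04 over all genes in each. With the deposited scaling as it stands 25, 21 and 28 of the 41 were above 0 in the same order. The medians over all genes then rose as well, to 0.03, 0.04 and 0.02. In WT the median of the 41 was then 0.00080, again below that of all genes. The direction of the group as a whole thus depended on the scaling, as did that of all genes. None of the 41 genes was called for a difference in the fraction effect between genotypes, nor was any of the 16563 genes (limma interaction, 0% of all genes with and without the block; at an unadjusted p under 0.05, 0 of the 41 and 24 genes, 0.145%, or 64 with the block). The interaction estimates were above 0 for 33 of the 41 genes (80.5%, all genes 54.4%), with a median of 0.05. That count depended on single mice. With the block and a mouse left out it was 6 without KO mouse 2 and 39 without KO mouse 1. The median then ranged from -0.05 to 0.21. Genes of the same libraries are not independent, so the count is no test. The largest interaction estimates were 0.27 for Acot3 (SE 1.31), 0.15 for Acsl3 (SE 0.37) and 0.12 for Acot2 (SE 0.46).

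Mice did not move alike in the mitochondrial genes. Of the 18 genes of the carnitine shuttle, dehydrogenases, later steps and flavoproteins, 0 were higher in the high-fat library of WT mouse 1, 1 in WT mouse 2 and 5 in WT mouse 3. In KO mouse 1 again 0 of 18 were higher, with a median difference of -0.37 on the log2 scale, whereas in KO mouse 2 there were 17 of 18, with a median of 0.18, and in KO mouse 3 there were 5. WT mouse 1 and KO mouse 1 also had the highest macrophage marker sums of the high-fat libraries, 11462 and 9928, against 2116 to 2371 in the other 4; the part of those cells in the difference was not tested. Across mice, the trifunctional protein subunit Hadha went from 8391 to 7596, from 8537 to 7345 and from 9109 to 9271 reads per 20 M in WT, and from 9615 to 8725, from 9135 to 9636 and from 9137 to 8685 in KO. The median difference over the mean of WT and KO was -0.17 for the 3 carnitine shuttle genes, -0.09 for the 5 dehydrogenases, -0.11 for the 7 genes of later steps and -0.07 for the 3 flavoprotein genes, with 0 calls in any of these groups with or without the block. The 2 ketone body genes differed by -0.03 (Acat1) and -0.02 (Bdh1, which makes beta-hydroxybutyrate).

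Within a library, the peroxisomal genes were compared with the mitochondrial genes, a contrast that does not rest on scaling between libraries and that was chosen after the values were seen. The mean log2 level of the 11 peroxisomal genes minus that of the 18 mitochondrial genes was higher in the high-fat library of all 6 mice, by 0.14 ± 0.09 (SD, n = 6; lowest 0.03 in KO mouse 2, highest 0.30 in WT mouse 1). Among the thiolases, Acaa1a and Acaa1b were higher relative to Acaa2 in the high-fat library, and Scp2 was not. Reads of peroxisomal Acaa1a as a percentage of reads of mitochondrial Acaa2 were 20.03%, 25.2% and 23.01% in WT low-fat and 27.8%, 29.4% and 30.0% in WT high-fat libraries, and 21.8%, 30.2% and 24.9% in KO low-fat and 31.5%, 33.6% and 26.8% in KO high-fat libraries. For Acaa1b the percentages were 143%, 165% and 121% in WT low-fat, 201%, 210% and 155% in WT high-fat, 152%, 176% and 167% in KO low-fat, and 204%, 194% and 191% in KO high-fat libraries. Both ratios were higher in the high-fat library of all 6 mice. The Acaa1a ratio in WT and the Acaa1b ratio in KO did not overlap between fractions, whereas Acaa1a in KO and Acaa1b in WT did. The log2 ratio of Scp2 to Acaa2 differed between the fractions by 0.05, 0.01 and -0.01 in WT mice 1 to 3 and by 0.08, -0.14 and -0.03 in KO mice 1 to 3, above 0 in 3 mice and below 0 in the other 3. Acaa2 itself was at 15193, 14276 and 16385 reads per 20 M in WT low-fat, 14244, 13848 and 16458 in WT high-fat, 16808, 13830 and 15245 in KO low-fat, and 14271, 16021 and 16004 in KO high-fat libraries. The group of 11 was itself mixed: 6 had a mean difference above 0 between fractions and 5 below, with a median of 0.06.

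**Figure D3:**
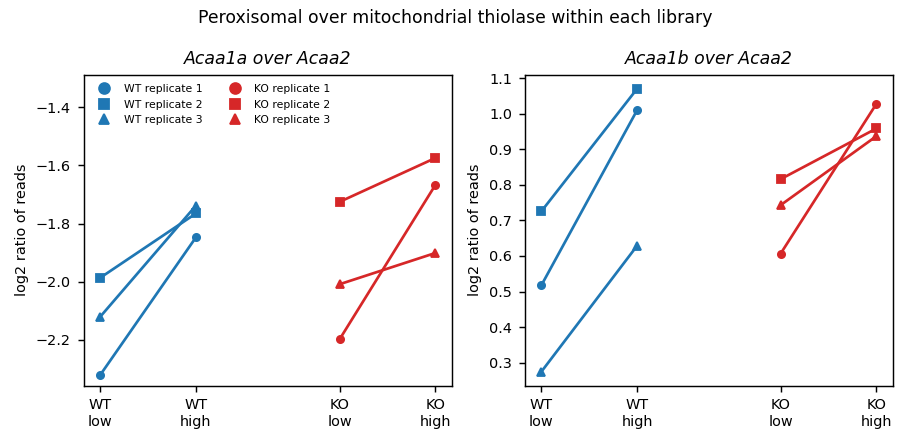
Log2 ratio of reads (vertical axes) of the peroxisomal thiolases Acaa1a (left) and Acaa1b (right) to the mitochondrial thiolase Acaa2 within each library, low-fat and high-fat libraries of a mouse joined, WT in blue and KO in red. All 6 lines rise in both panels.

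The comparison of genotypes asks whether loss of Ptprk changes these genes in hepatocytes of a given fat content. In neither fraction was any of the 41 genes called: 0 of 41 in the low-fat fraction, where 0.00604% of all genes (Ptprk alone) were called, and 0 of 41 in the high-fat fraction, also beside 0.00604% of all genes (limma). The call was the same with a block for the replicate number. At an unadjusted p under 0.05 there were 3 of 41 in the low-fat fraction (Ehhadh, Decr2 and Crat; 272 or 1.64% of all genes) and 2 in the high-fat fraction (Ehhadh and Decr2; 327 or 1.97% of all genes). The estimates lay mostly above 0: 37 of 41 were above 0 in the low-fat fraction (90.2%, all genes 50.4%) with a median of 0.12 on the log2 scale, and 38 of 41 in the high-fat fraction (92.7%, all genes 50.9%) with a median of 0.17. Over all genes both medians were 0.00. Genes measured in the same libraries are not independent, so these counts are no test, and both fractions come from the same 6 mice. Markers of other cells also differed in level between the genotypes, with 0 of these markers called. The sinusoidal endothelial markers summed to 2046 to 2177 reads per 20 M in WT against 884 to 1790 in KO low-fat libraries, without overlap, and to 4580 to 11411 against 3598 to 7318 in high-fat libraries, and the estimates of all 8 were below 0 in both fractions (medians -0.68 and -0.44). The macrophage markers summed to 663 to 1354 in WT and to 473 to 765 in KO low-fat libraries (median estimate -0.75, and -0.08 in high-fat libraries), and the median estimate of the stellate markers was -0.51 in the low-fat fraction, with 6 of 7 below 0. The genes of the central vein region summed to 49287 to 92242 in WT and 49370 to 66654 in KO low-fat libraries and to 93859 to 120147 and 85393 to 101711 in high-fat libraries (median estimates -0.60 and -0.51, 7 of 8 below 0 in each). The part of these shifts in the estimates was not tested.

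Ehhadh, the peroxisomal bifunctional enzyme, was at 8807, 9774 and 9386 reads per 20 M in WT low-fat against 11304, 11848 and 11306 in KO low-fat libraries. It was at 9856, 9527 and 11336 in WT high-fat against 11490, 14362 and 12420 in KO high-fat libraries. The genotypes did not overlap in low-fat libraries, nor in high-fat libraries before rescaling. The estimates were 0.31 and 0.34 on the log2 scale (SE 0.12 each, unadjusted p = 0.0269 and 0.0188, adjusted p = 0.99998 and 0.99993, limma).

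Decr2, the peroxisomal dienoyl-CoA reductase, was at 3822, 3854 and 4049 in WT low-fat against 4573, 4752 and 5247 reads per 20 M in KO low-fat libraries, without overlap. In the high-fat fraction it was at 4190, 4112 and 4824 against 4663, 5762 and 5415, with overlap. Its estimates were 0.32 and 0.29 (SE 0.13 each, unadjusted p = 0.0265 and 0.0412 in limma), the second 0.44 without KO high-fat replicate 1. Crat, which makes short-chain acylcarnitines, was at 897, 1557 and 1311 in WT low-fat against 1827, 1470 and 1600 in KO low-fat libraries, and at 1153, 1591 and 1475 in WT high-fat against 1823, 1904 and 1594 in KO high-fat libraries. The genotypes overlapped in the low-fat fraction and lay just apart in the high-fat fraction. Its estimates were 0.42 and 0.37 (SE 0.19 each), and without WT mouse 1, the lowest in both fractions, they were 0.21 (without its low-fat library) and 0.22 (without its high-fat library).

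In the low-fat fraction 4 genes had all KO libraries above all WT libraries (Slc25a20, Acaa1b, Ehhadh and Decr2), which is 9.76% of the group beside 2.64% of all genes. In the high-fat fraction Crat alone did (2.44% beside 2.27%), and 0 of 41 lay wholly lower in KO in either fraction (2.8% and 2.65% of all genes). Slc25a20, the carnitine-acylcarnitine carrier, was at 1864, 2240 and 2195 in WT low-fat against 2324, 2419 and 2331 reads per 20 M in KO low-fat libraries, with an estimate of 0.18 (SE 0.13). Acaa1b had an estimate of 0.23 (SE 0.11) in that fraction. Cpt1a, upstream in the same shuttle, had estimates of 0.17 and 0.20 (SE 0.17 each) in low-fat and high-fat libraries, and the ketone body enzyme Bdh1 0.15 and 0.27 (SE 0.14 each), the latter 0.17 without KO high-fat replicate 2.

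The lowest estimates were those of Acsl4 (-0.15 and -0.11, SE 0.26 each), Acsl5 (-0.09 and -0.04, SE 0.22 each) and Scp2 (-0.08 and -0.06, SE 0.16 each). Scp2 was at 55737, 49400 and 53670 reads per 20 M in WT low-fat, 54077, 48264 and 53477 in WT high-fat, 58978, 43303 and 47463 in KO low-fat, and 52839, 45395 and 48897 in KO high-fat libraries, so that KO held both the highest and the lowest library. Slc27a2 was at 30438, 29243 and 31469 in WT low-fat, 31782, 29503 and 32961 in WT high-fat, 33295, 37496 and 30381 in KO low-fat, and 33059, 36166 and 32113 in KO high-fat libraries, overlapping between genotypes in both fractions.

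**Figure D4:**
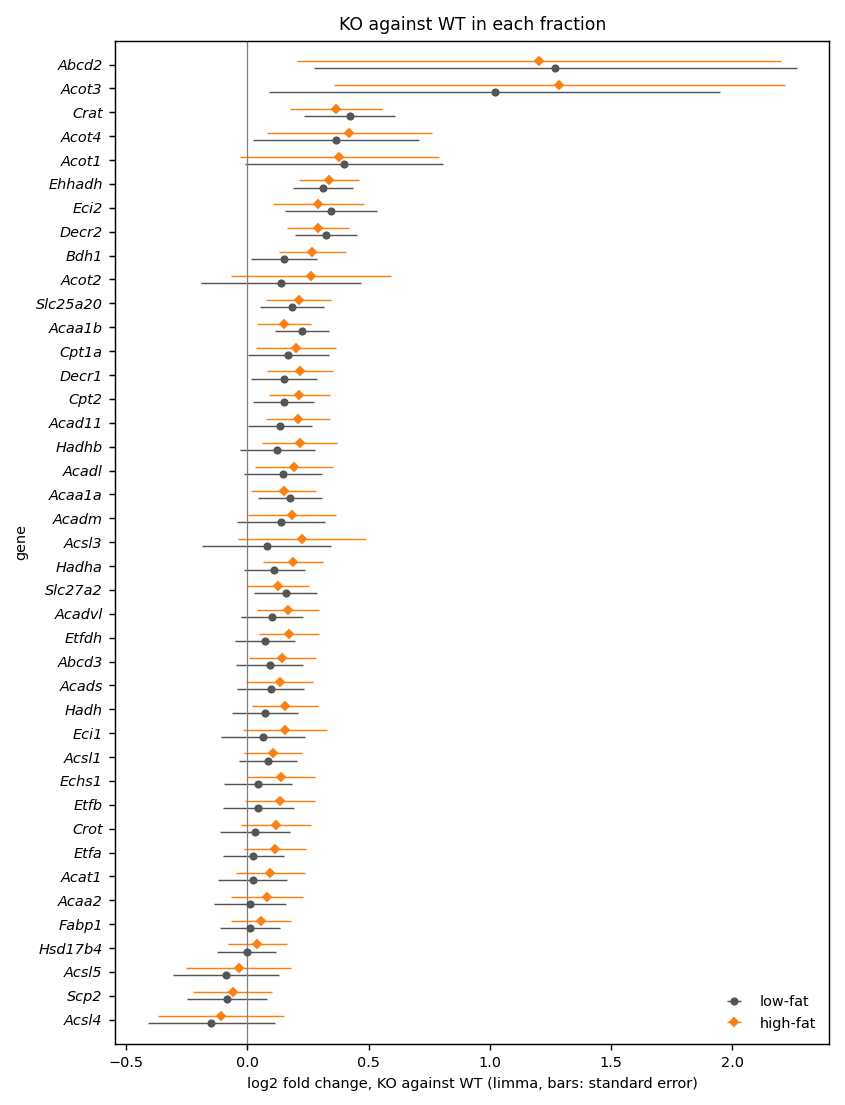
Log2 fold change of KO against WT (horizontal axis) for the 41 genes (vertical axis) in low-fat (dark circles) and high-fat libraries (orange diamonds), from limma, with bars of 1 standard error. Most points lie right of 0, the widest bars belong to Abcd2 and Acot3, and none of the 41 genes was called.

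The largest estimates between genotypes belonged to genes that differed most between mice of the same genotype. Abcd2, which carries very-long-chain acyl-CoA into peroxisomes, was at 37, 253 and 192 reads per 20 M in the low-fat libraries of WT mice 1 to 3 and at 49, 153 and 172 in their high-fat libraries. In KO mice 1 to 3 it was at 78, 655 and 500 in low-fat and at 68, 590 and 384 in high-fat libraries. KO mice 2 and 3 lay above every WT library, whereas KO mouse 1 lay below WT mice 2 and 3 in both fractions. The estimates were 1.27 and 1.20 on the log2 scale with SEs of 0.996, and both depended on single libraries. The low-fat estimate was 0.44 without WT low-fat replicate 1 and 2.19 without KO low-fat replicate 1, and the high-fat estimate was 0.58 without KO high-fat replicate 2 and 2.19 without KO high-fat replicate 1.

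Acot3 was at 9, 91 and 91 reads per 20 M in the low-fat libraries of WT mice 1 to 3 and at 11, 83 and 111 in their high-fat libraries. In KO mice 1 to 3 it was at 58, 136 and 91 in low-fat and at 59, 214 and 130 in high-fat libraries. WT mouse 1 alone lay far below the others in both fractions. The estimates were 1.02 and 1.29 (SE 0.93 each), and without WT low-fat replicate 1 the low-fat estimate was -0.0026, so that library decided it; without WT low-fat replicate 3 it was 1.57. The high-fat estimate was 0.31 without WT high-fat replicate 1 and 1.89 without WT high-fat replicate 3. Acot4, a peroxisomal thioesterase of dicarboxylic acyl-CoA, was at 472, 1124 and 1045 in WT low-fat, 507, 1064 and 1078 in WT high-fat, 1045, 1101 and 1006 in KO low-fat, and 977, 1360 and 1003 in KO high-fat libraries, again lowest in WT mouse 1. Acot2, the mitochondrial thioesterase, was at 93, 131 and 180 in WT low-fat, 119, 167 and 217 in WT high-fat, 103, 172 and 162 in KO low-fat, and 140, 267 and 191 in KO high-fat libraries; its difference between fractions was 0.30 (limma with the block, SE 0.09, adjusted p = 0.0653).

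Taking the mean of a mouse's 2 libraries, the highest mouse exceeded the lowest 17.5-fold for Acot3 (10 to 175 reads per 20 M) and 14.5-fold for Abcd2 (43 to 622.5). The same ratio was 3.002 for Acot1, 2.51 for Acot4 and 2.07 for Acot2. In all 5 genes the lowest was WT mouse 1 and the highest KO mouse 2. Of the 41 genes, 31 had a ratio under 1.5, the median was 1.26, and the smallest was 1.12 for Hsd17b4, the peroxisomal multifunctional enzyme. The acyl-CoA synthetases Acsl4 and Acsl3 followed the thioesterases with 1.94 and 1.84, in Acsl4 with WT mouse 1 highest and KO mouse 2 lowest. Where genes are near copies, reads may have been split between them: 26.0% of the 75-base windows of Acot1 and 21.2% of those of Acot2 also occur in another gene of the family, as do 20.6% of those of Acaa1a and 28.5% of those of Acaa1b, 5.72% of Acot3, 2.72% of Eci2 and 1.74% of Acot4, so the levels of the first 4 are uncertain in this respect.

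**Figure D5:**
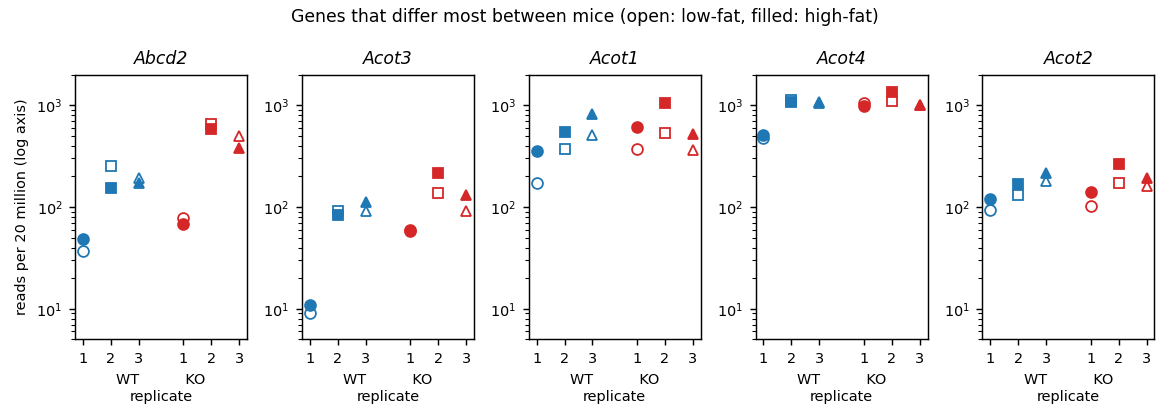
Reads per 20 M on a log axis (vertical) of the 5 genes that differed most between mice, by replicate of WT (blue) and KO (red), with open symbols for low-fat and filled symbols for high-fat libraries. WT replicate 1 is the lowest mouse and KO replicate 2 the highest in each panel, and the 2 fractions of a mouse lie close together beside the distance between mice for Abcd2 and Acot3.

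Other genes of the pathway were counted from lists. Of 43 further genes of oxidation and ketone body metabolism, 40 were tested (Cpt1c, Acsl6 and Acot5 fell below the filter). With the mouse block 3 rose in the high-fat fraction: Fabp4, the fatty acid binding protein of fat cells and macrophages (1.61 on the log2 scale, adjusted p = 0.0157), Oxct1, the ketone-using enzyme that hepatocytes are known to lack (0.80, adjusted p = 0.0215), and Slc27a1, a fatty acid transporter (0.38, adjusted p = 0.0352). Another 2 fell: Bdh2, a cytosolic dehydrogenase (-0.70, adjusted p = 0.00605), and Nudt19, a peroxisomal CoA hydrolase (-0.30, adjusted p = 0.038). Fabp4 and Bdh2 were also called without the block (adjusted p = 0.0186 and 0.0222, limma). Fabp4 was low throughout, at 14 to 33 reads per 20 M in low-fat and 32 to 252 in high-fat libraries, as was Oxct1 at 20 to 35 against 33 to 90, and the highest value of both was in WT high-fat replicate 1, the library with the highest macrophage sum; the part of those cells was not tested. The 3 that rose are 7.5% of the list and the 2 that fell 5%, beside 6.65% and 3.8% of all genes with the block, so both shares are near the background. The median over the 40 genes was -0.03, beside -0.04 over all genes.

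Among 17 regulators, 5 fell in the high-fat fraction with the block and 0 rose: Acaca, the cytosolic acetyl-CoA carboxylase (-0.49, adjusted p = 0.0249), the coactivator Ppargc1a (-0.41, adjusted p = 0.00868), Lpin1 (-0.31, adjusted p = 0.0385), Hnf4a (-0.30, adjusted p = 0.0419) and Esrra (-0.26, adjusted p = 0.0428), of which Esrra alone was called without the block (adjusted p = 0.0478, limma). The 5 are 29.4% of the list, beside 3.8% of all genes called lower with the block. Over all genes these lower calls went from 630 to 342 with the deposited scaling as it stands. The list was not counted with that scaling or with a mouse left out. Without the block, the share called lower was 5.88% of the list, beside 0.773% of all genes. The median over the 17 was -0.20, with 15 of 17 below 0, beside a median of -0.04 over all genes. Ppara, which encodes PPAR-alpha, differed by 0.04 and was not called. Of 20 tested genes of a list of 21 PPAR-alpha targets, which holds Acot1, Ehhadh and Fabp1 too, 7 rose with the block and 0 fell, with a median of 0.25: Aldh3a2 (0.97, adjusted p = 0.00337), Acot1, Cd36 (0.57, adjusted p = 0.00592), Vnn1 (0.56, adjusted p = 0.0054), Pdk4 (0.71, adjusted p = 0.0388), Cyp4a10 (0.34, adjusted p = 0.043) and Cyp4a32 (0.29, adjusted p = 0.0389). That is 35.0% of the list, beside 6.65% of all genes called higher with the block. Without the block, 5% of the list was called higher, beside 4.99% of all genes, so that share is near the background. Aldh3a2, a fatty aldehyde dehydrogenase, was the gene called without the block (limma, adjusted p = 0.0135). The difference of Pdk4 was largest in WT mouse 1 and KO mouse 1 (1.46 and 1.14), whose high-fat libraries had the highest macrophage sums. In the other mice it was 0.07 to 0.71, and the part of those cells was not tested. Between genotypes 0 genes of these 3 lists were called in either fraction by limma; at an unadjusted p under 0.05 there were 1 of 40, 1 of 17 and 3 of 20 of the oxidation, regulator and target lists in the low-fat fraction (2.5%, 5.88% and 15%, beside 1.64% of all genes) and 0, 1 and 4 in the high-fat fraction (0%, 5.88% and 20%, beside 1.97%).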

How the data were processed

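Libraries of polyA RNA from hepatocyte fractions of 6 mice were compared. The deposited values are a score in the sense that the authors scaled gene counts of each library to about 20 M (mega) and rounded them up; the scaling was read from the values and the table's name, since every column sums to about 20 M. The read aligner and counter are not given in the sources used here. The submitters' processing notes name the build mm9, while 99.7% of the gene identifiers occur in GENCODE M21 (GRCm38), which gave exon lengths; promoters came from RefSeq on GRCm38.p6, and no coordinate was converted.

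Because the values are scaled, no count model was used. Genes that reached a value of 10 in 3 or more libraries were kept (16563). Values were rescaled by a trimmed mean of M values (trimming 30% and 5%), and log2(value + 2) was fitted with limma 3.58.1 in R 4.3.3, with a mean for each group over all 12 libraries and trended moderated variances. P-values are two-sided, adjusted by Benjamini-Hochberg over all genes, and called under 0.05; fold changes on this scale understate those of low genes. Group overlap and per-mouse differences use rescaled values unless stated, while levels printed per library are on the deposited scale. Depth was estimated from the whole-number pattern of low values; a level of 3 reads corresponds to 2.40 to 3.98 reads per 20 M, which covers counting error only. Fit, scaling and depth estimate were tested on simulated data.

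The fit with the replicate block has a term for each mouse in comparisons of fractions. Both fractions of a mouse share its name in the labels; the correlation of their deviations from group means was 0.50, 0.47 and 0.58 in WT and 0.04, -0.01 and 0.46 in KO. For KO against WT the block is the replicate number. Same-numbered low-fat libraries correlated at 0.25, 0.40 and 0.29. The chi-square statistic per gene between replicates was 14.1 to 33.8, above read sampling, so each was counted as its own replicate. Replicates of a group are different mice.

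The 41 genes, the gene lists and the rule for naming were chosen with earlier results of these data known, so no list-wise test is given. Values in every library are printed for called genes, the 3 largest rises and falls of a comparison, the 5 most abundant genes and the near-copies; others were chosen after their values were seen.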

Additional observations from a re-analysis of the deposited data

How the results depend on the processing

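The calls among the 41 genes depended on the mouse block and on scaling. With the replicate block, the number of the 41 called went from 0 to 1 in WT and 1 in KO (Acot1 in both) and to 4 over both genotypes; all genes called went to 169, 354 and 1731. With the block and the deposited scaling alone these were 1, 1 and 7 (Acot1, Acot2, Fabp1, Eci2, Acaa1a, Acaa1b and Acsl3 in the last) and 173, 352 and 1521. With the block and median-of-ratios scaling they were 0, 1 and 4, and 0, 291 and 1671. These 2 combined settings, and leaving out a mouse with the block, were chosen after seeing the data. Without the block, the deposited scaling alone called 2 of the 41 over both genotypes (Acaa1b and Fabp1). In that fit 873 of all 16563 genes were called higher and 77 lower. That scaling gave a median difference in WT of 0.00080 with and without the block, beside 0.04 over all genes. A pseudocount of 10 called 1 gene in WT. Fitting only the libraries compared called 0 genes between genotypes in the high-fat fraction and 0 between fractions in KO. The cause was not tested.

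Leaving out 1 library at a time, without the block, gave 0 to 118 genes between fractions in WT (118 without KO low-fat replicate 1), 0 to 320 in KO (320 without WT high-fat replicate 1) and 606 to 1128 over both. It called 0 to 1 of the 41 (Fabp1, without KO low-fat replicate 1), and gave medians of -0.21 to -0.012 in WT, -0.09 to 0.08 in KO and -0.12 to -0.02 over both. Between genotypes it called 1 gene in low-fat fits and 0 to 1 in high-fat fits (0 without KO high-fat replicate 1); medians were 0.07 to 0.19 and 0.10 to 0.30. The low-fat estimate of Acot3 ranged from -0.0026 (without WT low-fat replicate 1) to 1.57. With the block, leaving out both libraries of a mouse gave 0 to 1649 genes in WT (1649 without KO replicate 1, 417 without KO replicate 2, 0 without any WT mouse or KO replicate 3). In KO it gave 309 genes without WT replicate 1, 0 without WT replicate 2, 315, 302 and 44 without KO replicates 1, 2 and 3. Over both it gave 619 without WT replicate 1, 1657 without KO replicate 1 and 2973 without KO replicate 2, of 16563 tested. It gave 567 higher and 175 lower without WT replicate 2, and 806 and 285 without WT replicate 3. Without KO replicate 3, it gave 740 and 224. Of the 41, it called 0 to 2 in WT, 0 to 1 in KO and 1 to 6 over both; Acot1 was called over both in every such fit, Acsl3 in 4 of 6, while 1 remained without WT replicate 1 or 2, 2 without WT replicate 3 or KO replicate 3, 6 without KO replicate 1 and 5 without KO replicate 2.

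For KO against WT the block for replicate number changed no call: 1 gene (Ptprk) and 0 of the 41 in either fraction. Same-numbered high-fat libraries correlated at 0.49, -0.17 and 0.38. Whether libraries of equal number share more than the number cannot be told from these correlations. Depth limits Acot3 most, at 9 reads per 20 M in 1 library, where 3 reads are worth 2.40.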
